A study of Mus musculus with 10 samples.

Results

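The genes described here encode 44 subunits of the mitochondrial respiratory chain and of ATP synthase, taken complex by complex. A gene was read from the probe sets that the platform annotation assigns to it alone, under its current or an older symbol, and the probe set with the highest mean over the 10 arrays stood for it. 43 of the 44 were measured in this way, among 18128 genes and 39993 probe sets, and Cox7b was not analysed here. They were 19 subunits of complex I, 4 of complex II, 6 of complex III, cytochrome c (Cycs), 8 of complex IV and 5 of complex V, with Ndufa4 counted in complex IV.

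RNA came from hind leg synovium of male DBA/1J mice, bought at 5 weeks of age and labelled 8 weeks, from which the adjoining muscle and skin had been cleaned away. All 10 mice had collagen antibody-induced arthritis (CAIA), set off by an anti-type II collagen antibody (1 mg into the peritoneum, day 8) and then by lipopolysaccharide (25 µg, day 11), and were killed on day 12. The vehicle group (5 mice) received corn oil by mouth, and the maslinic acid group (5 mice) received the olive triterpene maslinic acid in corn oil at 200 mg/kg each day. Per the design text the 5 mice of each group were picked from larger groups, and its untreated mice were not analysed here, so that no level without arthritis was available. The comparison asks how subunit transcripts differ in the synovium of arthritic mice given maslinic acid.

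The respiratory chain lies in the inner mitochondrial membrane. Complex I takes electrons from NADH and complex II takes them from succinate, both hand them to ubiquinone, complex III passes them on to cytochrome c, and complex IV transfers them to oxygen. Complexes I, III and IV pump protons, and complex V (ATP synthase) lets them flow back to make ATP. Skeletal muscle is rich in these complexes, and in muscle and heart some complex IV subunits come in tissue-specific forms, Cox6a2, Cox7a1 and Cox8b, in place of the widely expressed Cox6a1, Cox7a2 and Cox8a.

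Each deposited value is called a score, because the scale of differences between arrays was not settled by the sources. Levels ran from 5.12 to 13.9 as log2 intensities do, but the SD per probe set had a median of only 6.68 millionths of a unit, close to the 6 decimals given. For that reason single values are given below as deviations from the gene's mean over the 10 arrays, in millionths of a score unit, with the mice in the order of replicates 1 to 5. Group differences are given as Hedges' g, the maslinic acid mean minus the vehicle mean divided by the within-group SD, with a 95% confidence interval over 5 mice per group. The size of a deviation is not comparable between genes. 32 of the 43 members had 10 distinct values. 2 vehicle arrays, replicates 3 and 5, stood apart, with limma quality weights of 0.458 and 0.339 against 0.857 to 2.01 on the other 8, and values without them are given beside the results that they touch. The synovial lubricin gene Prg4 had a level of 11.5, and the muscle actin gene Acta1 a level of 13.3, so muscle transcripts were present in the cleaned tissue. The brown fat gene Ucp1, whose product uncouples the chain, had a level of 6.58.

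No respiratory chain subunit passed the test for a difference between maslinic acid and vehicle. In limma, 0 of 43 members had a Benjamini-Hochberg adjusted p under 0.05, where 0% of all 39993 probe sets did, the lowest adjusted p over all of them being 0.148. At an unadjusted p under 0.05 the count was again 0 of 43, against 4.29% of genes higher and 4.54% lower under maslinic acid (3617 probe sets in all). No member had groups that did not overlap, where 1.38% of genes did. In direction, 20 members had a positive and 23 a negative g, and their median g was -0.023 beside 0.00 over all genes, of which 48.1% had a positive g. Over the 32 members with 10 distinct values the median was -0.12, beside 0.23 over all genes of that resolution. With 5 mice per group the 95% interval of every member's g held 0 and extended over 1 within-group SD to either side of the estimate.

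The complexes differed in their median g without any member passing the test. The median was -0.32 over complex I (7 of 19 members positive), 0.23 over complex II (2 of 4), 0.07 over complex III (3 of 6), 0.0014 over complex IV (4 of 8) and 0.60 over complex V (4 of 5). Each of these moved when 1 array was left out, complex I between -0.64 and -0.033, complex II between 0.026 and 0.53, complex III between -0.14 and 0.56, complex IV between -0.33 and 0.20 and complex V between 0.29 and 1.15. The medians of complexes III and IV thus lay on either side of 0, depending on the array left out. Without vehicle replicates 3 and 5 the medians were 0.45, 0.34, 0.26, 0.32 and 0.17 from complex I to V, so complexes I and V no longer lay on opposite sides of 0. With each array centred on its median, which moved the median g of all genes to -0.39, the complex medians were -0.39, -0.33, -0.27, -0.38 and -0.24.

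**Figure D1:**
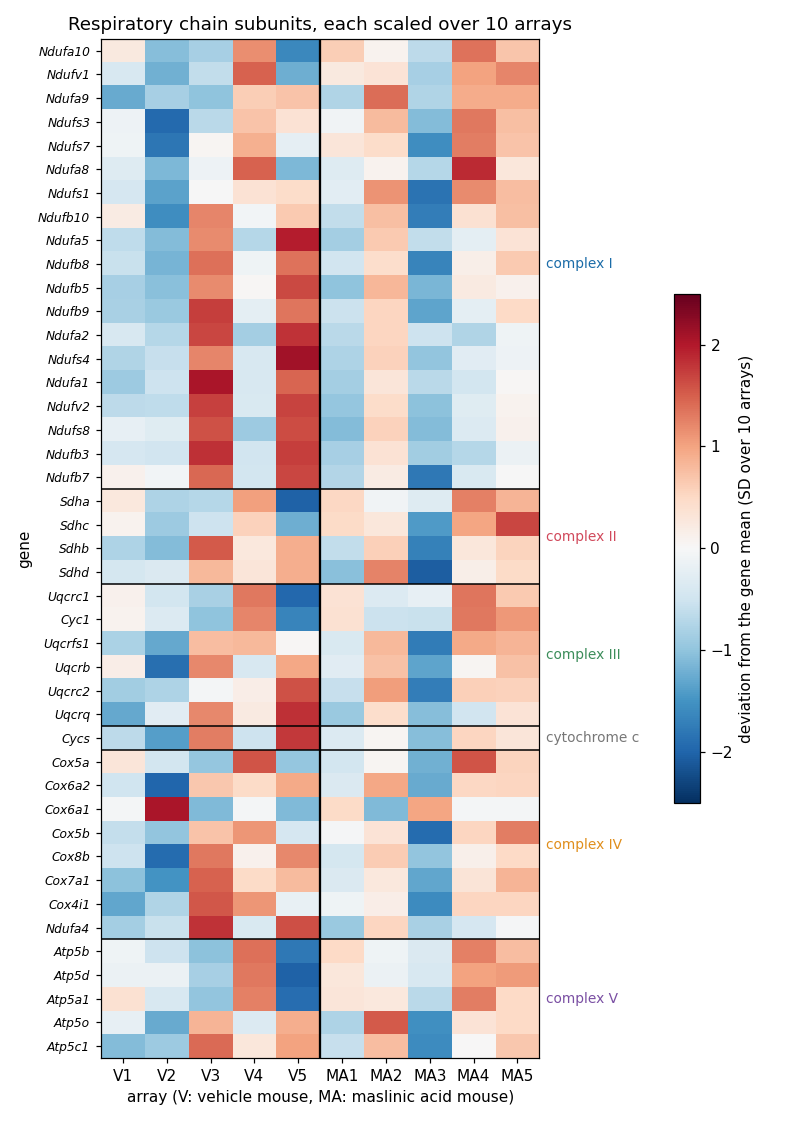
Deviation of each of the 43 subunits (rows, grouped by complex) from its mean over the 10 arrays, in SD over those arrays (colour), for 5 vehicle mice (V1 to V5) and 5 maslinic acid mice (MA1 to MA5). Vehicle replicates 3 and 5 are red in the lower rows of complex I and blue for Atp5a1, Atp5b, Atp5d, Uqcrc1 and Cyc1, while vehicle replicate 2 and maslinic acid replicate 3 are blue in most rows.

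Short sequences bound by known regulators of nuclear mitochondrial genes were looked up in the promoters that RefSeq gives on GRCm38.p6, from 250 bases before to 50 after a start site. 33 of the 44 members matched, with 36 windows, and both strands were read. The NRF1 letters GCGCATG stood in 7 of the 36 windows and in 3.91% of all 32851 windows of this length. CCGGAAG, bound by GABP, stood in 6 of 36 and in 8.86% of all. ATGGCGG, bound by YY1 and often placed over the first codon, stood in 7 of 36 and in 4.05% of all. The ERR letters AAGGTCA stood in 1 of 36 (Sdhd) and in 4.72% of all, and a MEF2 motif, typical of muscle genes, in 0 of 36 and in 3.19% of all. A GCGCATG on each strand can share bases, as in GCGCATGCGC. These matches describe letters and are not measured binding.

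Complex I, which oxidises NADH, is the largest of the complexes, and its 19 measured members ranged from the lowest g of all members to some of the highest. Ndufb7, a small accessory subunit, had deviations of 2.6, -1.4, 32.6, -10.4 and 37.6 in the vehicle mice and -16.4, 4.6, -40.4, -8.4 and -0.4 in the maslinic acid mice. Vehicle replicates 3 and 5 were its highest arrays, maslinic acid replicate 3 was its lowest, and the groups overlapped. It had g = -1.12 (95% CI -2.34 to 0.15), with exact permutation p = 0.119 and limma adjusted p = 0.582, the lowest of all members, and g = -0.53 without vehicle replicates 3 and 5. Ndufa10, an accessory subunit of the membrane arm, had deviations of 24.5, -104.5, -82.5, 115.5 and -160.5 under vehicle and 60.5, 9.5, -65.5, 134.5 and 68.5 under maslinic acid. Here vehicle replicate 5 was the lowest array and the 2 replicates numbered 4 the highest, and the groups overlapped. Its g = 0.80 (95% CI -0.41 to 1.96) had an adjusted p of 0.675 in limma, and without vehicle replicates 3 and 5 its g was 0.29.

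The core subunits of complex I include those that carry the flavin and the iron-sulfur clusters that move electrons, and accessory subunits surround the core. The 6 measured core subunits had a median g of 0.38 with 4 positive, and the 13 accessory ones a median of -0.34 with 3 positive. That split was not tested, and without vehicle replicates 3 and 5 both medians were positive, 0.40 and 0.45. Ndufs3, a core subunit of the arm that reaches into the matrix, deviated by -9.1, -132.1, -46.1, 47.9 and 24.9 in vehicle mice and by -6.1, 53.9, -73.1, 88.9 and 50.9 in maslinic acid mice. Vehicle replicate 2 was lowest and maslinic acid replicate 4 highest, with overlapping groups and g = 0.62 (95% CI -0.56 to 1.76). For Ndufs7, which holds the last iron-sulfur cluster before ubiquinone, the vehicle deviations were -4.9, -78.9, 2.1, 39.1 and -9.9 and the maslinic acid deviations 13.1, 20.1, -67.9, 56.1 and 31.1. The order of arrays was much the same, vehicle replicate 2 and maslinic acid replicate 3 being the lowest, and g = 0.42 (95% CI -0.73 to 1.55). Ndufs8, a core subunit with 2 iron-sulfur clusters, was at -5.2, -7.2, 38.8, -22.2 and 39.8 under vehicle and at -26.2, 13.8, -26.2, -8.2 and 2.8 under maslinic acid. Vehicle replicates 3 and 5 were its highest arrays, the groups overlapped, and g = -0.67 (95% CI -1.81 to 0.52) turned to 0.15 without them. The remaining complex I members had g between -0.83 (Ndufb3) and 0.74 (Ndufv1, which binds NADH and flavin), with adjusted p from 0.661 to 0.941.

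The Ndufs7 window is shown because this gene followed the muscle score, described further on, most closely. It lies at chr10:80249199-80249498, plus strand, and capitals mark the YY1 letters, 27 bases after the start site.
Ndufs7: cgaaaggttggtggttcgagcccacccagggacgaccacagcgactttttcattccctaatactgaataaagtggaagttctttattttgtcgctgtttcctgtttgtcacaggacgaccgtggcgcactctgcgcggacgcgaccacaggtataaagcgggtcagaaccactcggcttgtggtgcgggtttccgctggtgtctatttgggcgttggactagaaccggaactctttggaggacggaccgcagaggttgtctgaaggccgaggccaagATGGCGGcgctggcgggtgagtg

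Complex II, succinate dehydrogenase, belongs to both the chain and the citric acid cycle and is made of 4 subunits, all measured. Sdha, the flavoprotein that oxidises succinate, had deviations of 26.5, -79.5, -73.5, 105.5 and -209.5 in vehicle mice and 54.5, -9.5, -33.5, 130.5 and 88.5 in maslinic acid mice. Vehicle replicate 5 lay lowest by a wide margin, maslinic acid replicate 4 lay highest, and the groups overlapped. Its g = 0.86 (95% CI -0.36 to 2.03) was the highest of all members by the probe sets used, with an exact permutation p of 0.175 and limma adjusted p = 0.651, and dropped to 0.32 without vehicle replicates 3 and 5. Sdhd, a membrane anchor, was at -5.3, -4.3, 9.7, 3.7 and 10.7 under vehicle and -12.3, 14.7, -24.3, 1.7 and 5.7 under maslinic acid. Its lowest and its highest array were both in the maslinic acid group, replicates 3 and 2, so that the vehicle values lay inside that range, and g = -0.43 (95% CI -1.56 to 0.72). Sdhb (iron-sulfur protein) had a g of -0.29 and Sdhc (the other anchor) of 0.75, and without vehicle replicates 3 and 5 these were 0.35 and 0.41. Probe sets of Sdha, Sdhc and Sdhd disagreed in direction, as those of Ndufb8, Uqcrc2, Uqcrq and Cox5b did, 7 of the 26 members with several probe sets. For Sdha the opposite sign came from a probe set at a level of 6.56 (g = -0.097), while another at 10.3 had a g of 1.06. In Ndufb8 and Uqcrq it also came from a probe set of far lower level than the one used, 6.81 and 6.32. Those of Sdhc and Sdhd were at 8.68 and 7.74. In Uqcrc2 the opposite sign came from a probe set at 10.4 (g = 0.049), close to the level of 10.7 of the one used.

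Complex III, the cytochrome bc1 complex, passes electrons from ubiquinol to cytochrome c. Uqcrc1, a large core protein on the matrix side, had deviations of 16.1, -65.9, -117.9, 191.1 and -282.9 under vehicle and 51.1, -47.9, -29.9, 193.1 and 93.1 under maslinic acid. Vehicle replicates 5 and 3 were its lowest arrays, both replicates numbered 4 its highest, and the groups overlapped. It had g = 0.66 (95% CI -0.52 to 1.81), limma adjusted p = 0.721, and a g of 0.038 without vehicle replicates 3 and 5. Uqcrq, a small subunit, lay at -117.2, -26.2, 109.8, 19.8 and 167.8 in vehicle mice and at -85.2, 39.8, -97.2, -43.2 and 31.8 in maslinic acid mice. The same 2 vehicle arrays were its highest, the groups overlapped, and g = -0.61 (95% CI -1.75 to 0.57) became 0.14 without them. Cyc1, the cytochrome c1 that hands electrons on, had a g of 0.62, Uqcrfs1 (the Rieske iron-sulfur protein) of 0.16, and Uqcrc2 and Uqcrb had g of -0.023 and -0.019. Without vehicle replicates 3 and 5 the g of these 4 were 0.02, 0.39, 0.43 and 0.65. Cycs, the soluble carrier itself, had deviations of -18.5, -39.5, 36.5, -14.5 and 50.5 under vehicle and -9.5, 1.5, -30.5, 15.5 and 8.5 under maslinic acid. All 5 maslinic acid values lay between the vehicle extremes, with vehicle replicates 5 and 3 highest and replicate 2 lowest, and g = -0.17 (95% CI -1.29 to 0.95) became 1.11 without vehicle replicates 3 and 5.

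The Uqcrc1 window is given because Uqcrc1 stood lowest on the arrays on which Uqcrq and 11 complex I subunits stood highest. It lies at chr9:108936398-108936697, plus strand, with the NRF1 letters of both strands in capitals, starting 30 bases after the start site.
Uqcrc1: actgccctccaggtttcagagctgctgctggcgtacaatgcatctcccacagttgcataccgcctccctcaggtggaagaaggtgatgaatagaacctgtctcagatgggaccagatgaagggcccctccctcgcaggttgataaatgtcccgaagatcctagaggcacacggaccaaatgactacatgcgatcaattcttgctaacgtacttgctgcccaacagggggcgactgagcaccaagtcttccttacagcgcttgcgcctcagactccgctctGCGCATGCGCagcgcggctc

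Complex IV, cytochrome c oxidase, is where oxygen is reduced. In its 3 muscle and heart forms deviations reached -6172.0, -21138.5 and -20856.6 millionths (Cox6a2, Cox7a1 and Cox8b), against at most 1205.1 (Ndufa5) in the other members, on a scale that is not comparable between genes. Cox6a2 had deviations of -1563.0, -6172.0, 2123.0, 1480.0 and 2916.0 in vehicle mice and -1126.0, 3021.0, -3946.0, 1607.0 and 1660.0 in maslinic acid mice. Vehicle replicate 2 and maslinic acid replicate 3 were its lowest arrays and the groups overlapped, with g = 0.13 (95% CI -0.99 to 1.25) and exact permutation p = 0.81. Cox7a1 stood at -14374.5, -21138.5, 20713.5, 6672.5 and 11169.5 under vehicle and -5170.5, 3848.5, -18226.5, 4414.5 and 12091.5 under maslinic acid. Again vehicle replicate 2 and maslinic acid replicate 3 were lowest, vehicle replicate 3 was highest, and g = -0.074 (95% CI -1.19 to 1.05). For Cox8b the vehicle deviations were -5666.6, -20856.6, 14373.4, 1097.4 and 13017.4 and the maslinic acid deviations -4710.6, 6792.4, -10776.6, 1285.4 and 5444.4. Its order was alike, with vehicle replicates 3 and 5 on top and replicate 2 at the bottom, and g = -0.062 (95% CI -1.18 to 1.06). Without vehicle replicates 3 and 5 the g of the 3 forms were 0.64, 0.62 and 0.80 in this order, none at an unadjusted p under 0.05.

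Cox6a1, the widely expressed partner of Cox6a2, took only 5 distinct values, -0.1, 3.9, -2.1, -0.1 and -2.1 in vehicle mice and 0.9, -2.1, 1.9, -0.1 and -0.1 in maslinic acid mice. Vehicle replicate 2, lowest for Cox6a2, was its highest array, and g = 0.089 (95% CI -1.03 to 1.21). Cox4i1, the main form of a subunit on which the enzyme is regulated, was at -14.1, -8.1, 16.9, 11.9 and -2.1 under vehicle and -1.1, 1.9, -17.1, 5.9 and 5.9 under maslinic acid, with vehicle replicate 3 highest, maslinic acid replicate 3 lowest and g = -0.14 (95% CI -1.26 to 0.98). Cox5a, a matrix-side subunit, had 7 distinct values, 1.2, -1.8, -3.8, 6.2 and -3.8 and -1.8, 0.2, -4.8, 6.2 and 2.2 in the 2 groups. Both replicates numbered 4 were its highest arrays, and g = 0.17 (95% CI -0.96 to 1.29) was the highest g of the complex. A second probe set of Cox5a, at a level of 12.228 beside 12.242, had a g of 1.15, and the mean of its 3 probe sets had a g of 0.87. Ndufa4, long listed with complex I and later assigned to complex IV, had deviations of -315.8, -204.8, 673.2, -139.8 and 604.2 under vehicle and -343.8, 198.2, -304.8, -156.8 and -9.8 under maslinic acid. Vehicle replicates 3 and 5 were far above the other 8 arrays, the groups overlapped, and g = -0.60 (95% CI -1.74 to 0.57) became 0.44 without them. Cox5b had a g of 0.064, and 0.15 without those 2 arrays. Its other probe sets all had a negative g, -0.10, -0.57, -0.38 and -0.71 at levels of 12.07, 11.5, 11.0 and 6.68, beside 12.14 for the one used.

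The windows of 2 muscle forms and of 1 widely expressed form are set side by side because their correlations with the muscle score, given further on, had opposite signs. Cox7a1 (chr7:30183921-30184220, plus strand) and Cox8b (chr7:140900397-140900696, minus strand) hold none of the motifs searched. In Cox6a1 (chr5:115348909-115349208, minus strand) capitals mark the NRF1 letters of both strands and, nearer the start site, the GABP letters on the opposite strand.
Cox7a1: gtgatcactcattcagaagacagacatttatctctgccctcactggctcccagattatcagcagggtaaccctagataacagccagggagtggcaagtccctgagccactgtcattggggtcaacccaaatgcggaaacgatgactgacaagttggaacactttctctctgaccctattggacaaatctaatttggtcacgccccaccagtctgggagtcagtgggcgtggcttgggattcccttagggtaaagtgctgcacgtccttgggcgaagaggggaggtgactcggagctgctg
Cox8b: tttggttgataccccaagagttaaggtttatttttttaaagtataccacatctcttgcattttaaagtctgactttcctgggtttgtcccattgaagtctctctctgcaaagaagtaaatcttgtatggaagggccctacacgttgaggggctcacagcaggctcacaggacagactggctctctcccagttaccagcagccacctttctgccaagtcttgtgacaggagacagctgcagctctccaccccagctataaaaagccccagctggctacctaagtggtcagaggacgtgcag
Cox6a1: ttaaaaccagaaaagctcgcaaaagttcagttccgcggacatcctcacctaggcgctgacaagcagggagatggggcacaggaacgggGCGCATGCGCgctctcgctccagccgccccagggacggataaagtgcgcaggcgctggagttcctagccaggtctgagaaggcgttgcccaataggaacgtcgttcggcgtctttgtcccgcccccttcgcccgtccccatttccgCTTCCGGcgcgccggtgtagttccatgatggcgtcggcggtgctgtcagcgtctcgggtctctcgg

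Complex V had the highest median g of the complexes with all members and all 10 arrays weighted equally. Its median was 0.024 over members with 10 distinct values and 0.39 with array quality weights, below complexes II and III in both cases, and at 0.17 it was the lowest without vehicle replicates 3 and 5. Over 12 other complex V subunits, which are not members, the median g was -0.48 with 3 positive. Atp5b, the catalytic beta subunit of its matrix head, had deviations of -5.5, -24.5, -49.5, 66.5 and -85.5 in vehicle mice and 23.5, -5.5, -17.5, 60.5 and 37.5 in maslinic acid mice. Vehicle replicates 5 and 3 were its lowest arrays, both replicates numbered 4 its highest, and the groups overlapped. It had g = 0.77 (95% CI -0.43 to 1.93), with an exact permutation p of 0.214 and limma adjusted p = 0.68, and a g of 0.17 without vehicle replicates 3 and 5. Atp5a1, the alpha subunit, and Atp5d, the delta subunit of the central stalk, had the same 2 lowest arrays, with g of 0.60 and 0.67, and of -0.093 and 0.017 without them. Atp5c1, the gamma subunit that turns inside the head, lay at -35.8, -29.8, 46.2, 9.2 and 33.2 under vehicle and -18.8, 25.2, -51.8, 0.2 and 22.2 under maslinic acid. Vehicle replicates 3 and 5 were its highest arrays, maslinic acid replicate 3 was its lowest, and g = -0.24 (95% CI -1.36 to 0.89) became 0.42 without them. Atp5o, part of the stalk that holds the head still, had a g of 0.024 with all arrays and 0.52 without those 2. The Atp5b window is printed for contrast with that of Ndufs7, since both hold the YY1 letters while their lowest arrays differed. It lies at chr10:128083057-128083356, plus strand, with the letters (opposite strand) in capitals.
Atp5b: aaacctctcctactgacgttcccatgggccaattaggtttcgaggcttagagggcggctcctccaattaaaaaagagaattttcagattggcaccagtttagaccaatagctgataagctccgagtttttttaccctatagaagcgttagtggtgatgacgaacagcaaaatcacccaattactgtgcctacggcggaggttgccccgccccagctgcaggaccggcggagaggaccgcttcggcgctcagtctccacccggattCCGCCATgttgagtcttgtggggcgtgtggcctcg

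Vehicle replicates 3 and 5 divided the subunits. Both arrays lay above the other 8 for 18 of the 43 members, where 8.25% of all genes had this pattern, and both lay below the other 8 for 5 members, where 12.1% of all genes did, a share near that of the members. The 18 included 11 of the 19 complex I members, 9 of them accessory (Ndufa1, Ndufa2, Ndufa5, Ndufb3, Ndufb5, Ndufb7, Ndufb8, Ndufb9, Ndufs4, Ndufs8 and Ndufv2), with Sdhb, Uqcrq, Uqcrb, Cycs, Ndufa4, Cox8b and Atp5c1. The 5 were Uqcrc1, Cyc1, Atp5a1, Atp5b and Atp5d. All 18 had a negative g and all 5 a positive one. Both being vehicle arrays, they pull g in that direction without fixing its sign. Atp5f1, a complex V subunit outside the 43 members, also had both highest, with g = 0.15. Without the 2 arrays 38 members had a positive g and 5 a negative one, 21 having turned to positive and 3 to negative, and the median over members was 0.39 beside -0.051 over all genes, of which 47.0% were positive. 0 of 43 had an unadjusted p under 0.05 in that fit, where 2.45% of genes were higher and 4.61% lower at that threshold. The mean scaled value of complex I on the vehicle arrays was -0.44, -0.97, 0.79, 0.09 and 0.86, and on the maslinic acid arrays -0.51, 0.55, -1.10, 0.32 and 0.40. For complex V the means were -0.24, -0.65, -0.12, 0.78 and -0.76 under vehicle and -0.057, 0.46, -0.91, 0.78 and 0.70 under maslinic acid. Complex I was thus highest on vehicle replicates 3 and 5, and complex V was lowest on maslinic acid replicate 3 and next on vehicle replicate 5. For 33 of the 43 members the vehicle SD, which takes in replicates 3 and 5, exceeded the maslinic acid SD. The share over all genes was not counted, so this cannot be read as particular to the members. On vehicle replicates 3 and 5 the muscle score, explained further on, was 0.19 and 0.036, and the mean scaled value of 10 macrophage genes was -0.64 and -0.35, against -0.58 to 0.86 on the other arrays. The part of these in the standing of the 2 arrays was not tested.

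**Figure D2:**
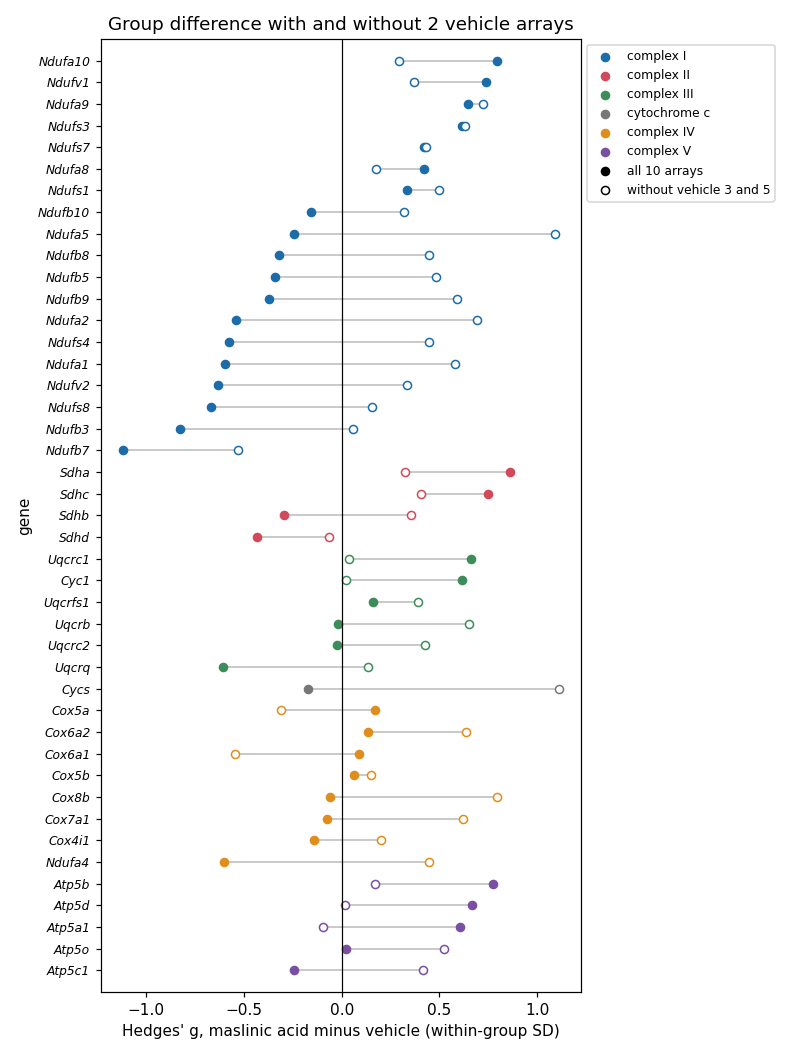
Hedges' g (maslinic acid minus vehicle, in within-group SD, horizontal axis) of each of the 43 subunits with all 10 arrays (filled) and without vehicle replicates 3 and 5 (open), coloured by complex. Filled points lie on both sides of 0 (20 positive, 23 negative), and 38 of the open points lie above 0.

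The chain has further subunits, assembly factors and regulators, which were listed from textbook knowledge. Of 39 other nuclear subunits measured, 3 had a positive and 36 a negative g, with a median of -0.50, and none had an unadjusted p under 0.05. By complex their median g was -0.49 (I, 0 of 15 positive), -0.49 (III, 0 of 3), -0.82 (IV, 0 of 9) and -0.48 (V, 3 of 12). Complexes I and V thus did not differ there as the medians of the members did. Vehicle replicates 3 and 5 were both highest in 29 of the 39, and without them 29 had a positive g and the median was 0.40. Cox8a, the common form of the subunit that Cox8b replaces, had g = -1.15 (95% CI -2.38 to 0.12) with exact permutation p = 0.111, and Ndufb1, a complex I accessory subunit, g = -1.05 (95% CI -2.26 to 0.20) with p = 0.103. 1 subunit encoded in mitochondrial DNA was measured, mt-Nd5 of complex I, with g = -0.27 (95% CI -1.39 to 0.86). Assembly factors build the complexes without staying in them. Of 42 measured, 13 had a positive and 29 a negative g (median -0.29), and 2 had an unadjusted p under 0.05, both lower under maslinic acid, where 4.54% of all genes were lower at that threshold, a share near that of the list, and both short of the adjusted threshold. They were Ndufaf3, of complex I assembly, with g = -1.44 (95% CI -2.72 to -0.088) and limma adjusted p = 0.515, and Coa3, of complex IV assembly, with g = -1.31 (95% CI -2.56 to 0.0062) and adjusted p = 0.548. Of 19 regulators of mitochondrial biogenesis 8 had a positive and 10 a negative g and 1 had 0, with a median of -0.10. Ppargc1a, the coactivator PGC-1alpha that drives mitochondrial biogenesis in muscle and brown fat, was at -454.7, -522.7, -8.7, 275.3 and -311.7 under vehicle and 144.3, 306.3, -194.7, 189.3 and 577.3 under maslinic acid. Vehicle replicate 4 alone of the vehicle mice lay above 0, as did all maslinic acid mice but replicate 3, the groups overlapped, and g = 1.20 (95% CI -0.088 to 2.43), with an exact permutation p of 0.0714 and limma adjusted p = 0.567. Perm1, a muscle regulator induced by PGC-1alpha, had a g of -1.09. Both genes were measured at low levels, 6.38 for Ppargc1a and 6.33 for Perm1, with 27.7% and 25.7% of genes lower. Of 16 citric acid cycle genes, whose enzymes feed the chain with NADH and succinate, 12 had a positive and 4 a negative g (median 0.62, but -0.13 with arrays centred on their medians and -0.41 after quantile normalization), none at an unadjusted p under 0.05. Citrate synthase (Cs) had g = 1.03 (95% CI -0.22 to 2.23) with exact permutation p = 0.0952, and Suclg2, of succinyl-CoA ligase, had g = 1.00 (95% CI -0.24 to 2.19).

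Muscle content was summarised on each array by a muscle score, the mean over 30 genes of fast and general skeletal muscle of values scaled to mean 0 and SD 1. None of the 30 is a respiratory chain subunit. The score was -0.29, -1.89, 0.19, 0.65 and 0.036 in vehicle mice 1 to 5 and 0.15, 0.69, -0.78, 0.84 and 0.40 in maslinic acid mice 1 to 5. Vehicle replicate 2 was far below the rest, maslinic acid replicate 3 was next, and the groups overlapped. 29 of the 30 muscle genes had a positive g (median 0.45), none at an unadjusted p under 0.05, and the 2 of lowest p were Neb, which encodes nebulin of the thin filament, with g = 0.94 (95% CI -0.29 to 2.12), and Pygm, the muscle glycogen phosphorylase, with g = 0.93 (95% CI -0.30 to 2.11). Bulk RNA cannot tell fewer muscle cells from less RNA per muscle cell.

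Nearly every one of the 43 members had a positive correlation with the muscle score over the mice, and none passed the adjusted test. Pearson's r was positive for 42 of 43 members, against 43.2% of 18038 genes with more than 1 value, and its median was 0.56 over members and -0.052 over all genes. By complex the median r was 0.55 (I), 0.58 (II), 0.50 (III), 0.69 (IV) and 0.44 (V), with 0.80 over complex I core and 0.48 over accessory subunits. The 39 other nuclear subunits had a lower median r, 0.30 with 32 positive, and -0.077 without vehicle replicate 2 and maslinic acid replicate 3. By complex their median r was 0.32 (I), 0.33 (III), -0.12 (IV, 4 of 9 positive) and 0.33 (V). The high median of the complex IV members was thus not shared by its other subunits. Among those members it was 0.75 over the 3 muscle forms and 0.54 over the 5 remaining ones, the latter below complexes I and II. 17 members had a positive r with an unadjusted permutation p under 0.05, where 3.63% of genes did, and 1 had a negative r, where 2.15% did. The 17 were Ndufa8, Ndufa9, Ndufb10, Ndufs1, Ndufs3, Ndufs7 and Ndufv1 of complex I, Sdhb and Sdhc, Uqcrfs1 and Uqcrb, Cox4i1, Cox5b, Cox6a2, Cox7a1 and Cox8b, and Atp5o, with r from 0.64 to 0.94. After Benjamini-Hochberg adjustment over the 18038 genes tested, 0 members passed, as 0% of genes did in either direction. With Spearman's rho 15 members were positive with an unadjusted permutation p under 0.05 (3.73% of genes) and 0 negative (2.74% of genes), and again 0 passed the adjusted threshold. The genes of one array share its RNA and its scaling, so members are not independent points. Over the 8 arrays left without vehicle replicate 2 and maslinic acid replicate 3, the 2 farthest in muscle score, 31 members had a positive r, the median was 0.33, and 6 were positive at an unadjusted exact permutation p under 0.05 (2.43% of genes) and 0 negative (2.39% of genes). By complex the median over these 8 arrays was 0.042 (I), 0.38 (II), 0.40 (III), 0.37 (IV) and 0.44 (V). Complex V was then the highest and complex I the lowest, with 0.70 over complex I core and -0.0065 over accessory subunits. The order of the complexes thus depended on those 2 arrays. Ndufs1, the largest core subunit of complex I, and Uqcrfs1 went from 0.86 and 0.85 to 0.87 and 0.78, whereas Uqcrb went from 0.72 to -0.17. With group means removed the median r was 0.60, and with a score of 10 slow muscle genes it was 0.37. After quantile normalization only 23 members kept more than 1 value, and the median r of these was 0.082.

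**Figure D3:**
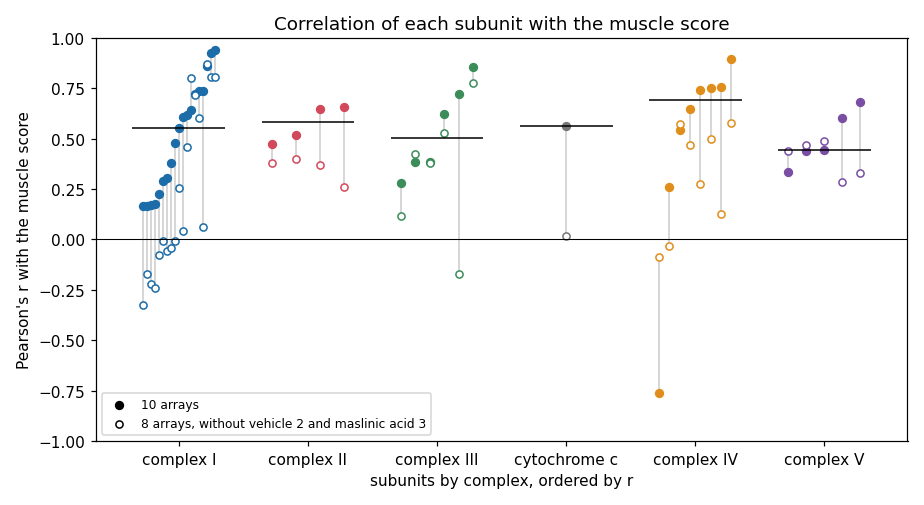
Pearson's r of each subunit with the muscle score over 10 arrays (filled) and over the 8 arrays without vehicle replicate 2 and maslinic acid replicate 3 (open), ordered by r within each complex. Horizontal bars mark the median of the filled points of each complex, between 0.44 (complex V) and 0.69 (complex IV), and most open points lie below their filled ones.

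The 3 subunits that followed the muscle score most closely were Ndufs7, Ndufs3 and Cox6a2. For Ndufs7 r was 0.94 (permutation p = 4e-05, adjusted 0.0564) and rho 0.94 (p = 0.0002), and r was 0.80 without the 2 farthest arrays. Ndufs3 had r = 0.93 (permutation p = 0.00021, adjusted 0.0881), rho = 0.90 (p = 0.0007) and 0.81 without those arrays. Both passed the adjusted threshold when vehicle replicates 3 and 5 were left out, as 0.622% of genes did with a positive and 0.0278% with a negative sign, with r of 0.95 and 0.98. These 2 core subunits thus kept a high r over the middle of the score's range. Cox6a2 had r = 0.89 (permutation p = 0.00107, adjusted 0.172), rho = 0.66 (p = 0.0436) and an r of 0.58 without the 2 farthest arrays. At the other end, Cox6a1 had r = -0.76 (permutation p = 0.0113, adjusted 0.48) and rho = -0.54 (p = 0.114), and r was -0.087 without those arrays. With each array centred on its median r was positive for Cox6a1, the lowest r of any member being 0.28. The array medians ran from 6.744656 to 6.744928, a range far wider than the SD of Cox6a1 (1.91 millionths). Its centred values therefore follow the array medians, and this setting cannot show whether the sign of its r depends on processing. Ndufb7 and Ndufs8, whose highest arrays were vehicle replicates 3 and 5, had r = 0.17 (permutation p = 0.636) and 0.17 (p = 0.664), with -0.32 and -0.17 without the 2 farthest arrays.

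For the muscle forms of complex IV the correlation was smaller without the lowest muscle scores. Cox7a1 had r = 0.74 (permutation p = 0.00918, adjusted 0.437, rho = 0.58) and Cox8b r = 0.75 (p = 0.011, adjusted 0.473, rho = 0.59). Without vehicle replicate 2 and maslinic acid replicate 3 their r were 0.28 and 0.12, so the relations did not hold without those 2 arrays. Without maslinic acid replicate 3 alone r was 0.71 for Cox7a1 and 0.72 for Cox8b. Without vehicle replicate 2 alone r was 0.78 for Cox6a2, 0.58 for Cox7a1 and 0.46 for Cox8b. Without vehicle replicates 3 and 5, in contrast, r was 0.97 for Cox6a2, 0.89 for Cox7a1 and 0.95 for Cox8b. Their widely expressed counterparts had r of -0.76 (Cox6a1), 0.12 (Cox7a2) and -0.50 (Cox8a), of which that of Cox6a1 alone had an unadjusted permutation p under 0.05. Without the 2 farthest arrays these were -0.087, -0.31 and -0.73, and that of Cox8a alone was under this threshold (exact permutation p = 0.041). Deviations of Cox8a ran only from -4.0 to 4.0 millionths, close to the 6 decimals given. Among the regulators, Ppargc1a, at its low level of 6.38, had r = 0.77 (permutation p = 0.00513, adjusted 0.339), and 0.62 without the 2 farthest arrays.

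**Figure D4:**
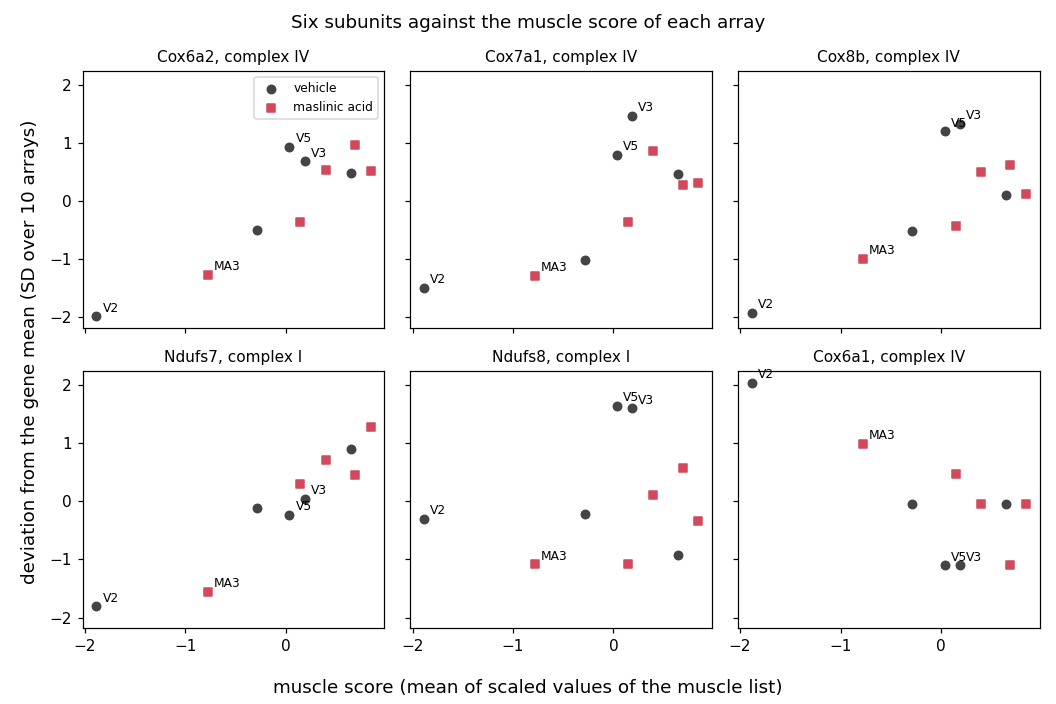
Deviation from the gene mean (SD over 10 arrays, vertical axis) against the muscle score of each array (horizontal axis) for 6 subunits, with vehicle mice as circles and maslinic acid mice as squares. Vehicle replicate 2, with a score of -1.89, lies lowest for Cox6a2, Cox7a1, Cox8b and Ndufs7 and highest for Cox6a1, and vehicle replicates 3 and 5 lie above the other arrays for Ndufs8.

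With the muscle score as a covariate in the limma fit, 13 members had a positive and 30 a negative g, the median g was -0.65 beside 0.00 over all genes, and 1 member, Ndufb7 with g = -1.43, had an unadjusted p under 0.05. At that threshold 5.11% of genes were higher and 3.87% lower in this fit. Its g is the fitted group difference divided by the residual SD of the fit, so its size is not comparable with that of g without the covariate. The same holds for g with array quality weights and with the replicate number as a block. Complex V kept a positive median, 0.39, and the medians of complexes I to IV were -0.82, -0.26, -0.57 and -0.78. 0 members passed the adjusted threshold in that fit. Markers of other cells the dissection could hold also varied. All 8 fat genes had a positive g (median 0.62), among them the leptin gene Lep with g = 1.27 (95% CI -0.034 to 2.52) and limma adjusted p = 0.552, and Cidec of lipid droplets with g = 0.99 (95% CI -0.26 to 2.18). Of 13 neutrophil genes 2 had a positive and 11 a negative g (median -0.57). The chemokine receptor gene Cxcr2 had g = -2.71 (95% CI -4.39 to -0.96) with groups that did not overlap, and Csf3r, the receptor for the granulocyte growth factor, g = -1.89 (95% CI -3.30 to -0.41), at limma adjusted p of 0.418 and 0.476. Of 10 macrophage genes 7 had a positive g (median 0.22, but -0.18 with 3 positive without vehicle replicates 3 and 5), with -0.95 for Lyz2 and 0.75 for Cd68, and of 12 synovial fibroblast and lining genes 9 (median 0.076, and -0.086 after quantile normalization), with 1.24 for Cdh11 and 0.94 for Pdgfra. Of 10 slow muscle genes 9 had a positive g (median 0.42), with 0.68 for Myl2 and 0.68 for Tnni1. Of 8 brown fat genes 4 had a positive g (median -0.14, but 0.15 with 5 positive without vehicle replicates 3 and 5), with -0.96 for Elovl3 and 0.86 for Lhx8. Levels were low for Myl2 (6.15), Tnni1 (6.31), Elovl3 (5.98) and Lhx8 (5.94), with 10.3% to 25.1% of genes lower. The part of these cell types in the subunit values was not tested.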

How the data were processed

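Total RNA (100 ng) of each mouse was turned into biotin-labelled cRNA for Affymetrix arrays, per the labels' protocols. The authors deposited 1 value per probe set and array, named a score here because its scale is not settled. R 3.2.1 was used, per the submitters' processing notes, and for background correction, normalization and summary the method was not given in the sources used. How they were done could change the size of every difference between arrays. The design foresaw log-scale values, and the same linear model was run on the scores as deposited.

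Groups and replicate numbers came from the sample titles, which call the samples biological replicates. No cage, litter or scan batch was given, so p-values measure the spread between these samples. Of 39993 probe sets 34202 named 1 gene, 931 several and 4860 none. All probe sets were fitted in limma 3.58.1 with lmFit and eBayes (R 4.3.3; prior degrees of freedom 0.503), maslinic acid against vehicle, two-sided, with Benjamini-Hochberg adjustment over all and a threshold of 0.05. Exact permutation over 252 assignments cannot go below p = 0.00794. Correlations used 100000 permutations of the arrays, two-sided, or all of them for under 10 arrays. Python 3.11.15 with numpy 2.4.6, pandas 2.3.3, scipy 1.17.1 and matplotlib 3.10.9 was used, and the scripts were tested on simulated data.

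The members and gene lists were chosen with earlier results of these data known, and the division of complex I into core and accessory subunits was made after its values were seen. The genes named are, per complex, those of lowest and highest g, 6 fixed ones (Cox6a2, Cox7a1, Cox8b, Cox6a1, Cox4i1 and Cycs), the 3 of highest and 3 of lowest r with the muscle score, and the 2 of lowest p in each other list. Other genes named, such as Ucp1, Acta1, Prg4, Cox7a2 and members given by g alone, were named after their values were seen. Alternatives were quantile normalization, array centring, filters on level and on distinct values, array quality weights, eBayes with a trend and robust fit, the muscle score as a covariate, the replicate number as a block, other probe set choices, the exact Wilcoxon test and arrays left out.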

Additional observations from a re-analysis of the deposited data

How the results depend on the processing

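In the 406 values of g of the 19 members described by mouse under the alternatives, 50 had the opposite sign, in 15 of the 19. After quantile normalization g was negative for Sdha (-0.57), Ndufs3 (-0.24) and Ndufs7 (-0.33). The g of Sdha was identical to that of Ndufa8, Ndufb7, Ndufb8 and Sdhd, and the g of Ndufs7 to that of Ndufb10. Only 23 members kept more than 1 value, and genes with identical g had lost nearly all resolution. The turned signs of Sdha and Ndufs7 therefore say little about these genes. With each array centred on its median the direction turned for Cox5a (-0.39), Cox6a1 (-0.40) and Ndufs7 (-0.12). Cox5a and Cox6a1 had SDs of 3.97 and 1.91 millionths, far below the range of the array medians, and that of Ndufs7, 43.7, was below it too. The g after centring therefore mostly reflects those medians for Cox5a and Cox6a1, and partly for Ndufs7, and says little about these genes. With array quality weights the direction turned for Atp5c1 (0.17), Cox7a1 (0.40), Cox8b (0.45), Cox6a1 (-0.30), Cox4i1 (0.13) and Cycs (0.44). With the muscle score as a covariate the direction turned for Cox5a (-0.15), Cox6a2 (-0.94) and Ndufs7 (-0.31). With all probe sets of a gene averaged the direction turned for Sdhd (0.0087). Without vehicle replicates 3 and 5 the direction turned for Uqcrq (0.14), Ndufa4 (0.44), Cox5a (-0.31), Atp5c1 (0.42), Cox7a1 (0.62), Cox8b (0.80), Cox6a1 (-0.55), Cox4i1 (0.20), Cycs (1.11) and Ndufs8 (0.15). With 1 array left out at a time, g ran from -0.36 to 0.45 for Cox6a2, -0.15 to 0.62 for Cox5a, -0.53 to 0.075 for Atp5c1, -0.45 to 0.25 for Cox7a1, -0.65 to 0.22 for Cox8b, -0.13 to 0.79 for Cox6a1, -0.47 to 0.20 for Cox4i1 and -0.55 to 0.22 for Cycs. After quantile normalization the median g of complex III, then over Uqcrq and Cyc1 alone, was -0.94. That of complex II was -0.57, the value shared by Sdha and Sdhd, and complex V had no member left with more than 1 value. The median of complex I turned from -0.32 to 0.18 with array quality weights, and that of complex II from 0.23 to -0.33 with centring. Sdhc and Sdhd had SDs of 10.0 and 11.8 millionths, far below the range of the array medians. The turn of complex II therefore says little about its subunits. Quantile normalization moved the median g of all genes to -0.27 and centring to -0.39, where the members' median was -0.36 with 8 positive.

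The count of members with an adjusted p under 0.05 was 0 under every alternative run. Over all probe sets it was 8 after quantile normalization and ran from 0 to 1 with 1 array left out, the 1 being without maslinic acid replicate 1. The exact Wilcoxon test gave 2741 probe sets and 0 members at an unadjusted p under 0.05. The count of members correlated with the muscle score was 2 without vehicle replicates 3 and 5, and ran from 0 to 2 with 1 array left out (2 where vehicle replicate 3 was absent, 1 where it was vehicle replicate 5). The cause of these changes was not tested. The replicate numbers did not pair the mice (correlations of same-numbered deviations from -0.39 to 0.35), and with the replicate block 0 probe sets, 0 members at the adjusted and 0 at the unadjusted threshold were called, with a median g over members of -0.02. The number of arrays and the 6 decimals limit precision.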
